A study of Mus musculus with 4 samples.

Results

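The immune checkpoint receptors and their ligands were examined as a set of 10 genes, found by symbol among the 32285 genes that every library lists, and all 10 were present once. The receptors were Pdcd1 (PD-1), Ctla4 (CTLA-4), Lag3 (LAG-3), Havcr2 (TIM-3) and Tigit (TIGIT). The ligands were Cd274 (PD-L1) and Pdcd1lg2 (PD-L2), which bind PD-1, Cd80 and Cd86, which bind CTLA-4 and CD28, and Lgals9 (galectin-9), a ligand of TIM-3. The libraries were droplet single-cell RNA libraries (10x Genomics, 3′ chemistry version 2) of tumours from C57Bl6 mice 6 to 8 weeks old. Control tumours gave 2 libraries, and tumours treated with a nanocapsule, which the series title describes as a multifunctional enzyme capsule, gave 2. The labels give no tumour line, no dose, no time after treatment, and nothing that says whether the libraries came from separate animals, so the p-values below measure the spread between these libraries only.

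Checkpoint receptors are surface proteins of T and NK cells that dampen activation when a ligand on another cell engages them. PD-1 is induced by antigen receptor signalling and recruits phosphatases to it. CTLA-4 competes with the costimulatory receptor CD28 for CD80 and CD86 and is held at high levels by regulatory T cells. LAG-3 binds MHC class II, TIM-3 marks terminally exhausted CD8 T cells and is also found on dendritic cells and macrophages, and TIGIT competes with CD226 for the poliovirus receptor. PD-L1 is induced by interferon-gamma, with IRF1 among the factors that act on its gene, on tumour and myeloid cells, whereas PD-L2 is found mainly on antigen-presenting cells.

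Of the barcodes, 9548 held at least 1500 unique molecular identifiers (UMIs, one per captured RNA molecule), 200 genes and at most 20% mitochondrial UMIs, with 3837 and 1840 cells in the control libraries and 2294 and 1577 in the nanocapsule libraries. Library totals ran from 98943390 to 140491491 UMIs, the median cell held 35172 to 62976 UMIs, and any pair of libraries shared 1 to 13 cell barcodes. The labels call the material cancer cells, but the clusters also held immune cells. All 9 melanocyte genes of the list for tumour cells, such as Dct and Pmel, were detected in the 949 to 3060 cells per library called melanocytic tumour-like, at a summed level of 11536 to 12673 CPM (the UMIs of a gene per 1000000 UMIs of the summed cells). Clusters led by markers of immune cells gave 13 to 63 T-like, 7 to 17 NK-like, 78 to 132 macrophage-like and 11 to 36 conventional dendritic-like cells per library, the last led by Ccl22, Il12b, Ccl17 and Xcr1. The 10 genes were kept out of the clustering, so no cell was assigned to a class by them. Clusters holding 335 to 569 cells per library (11.81% to 24.8% of its cells) stayed unnamed, among them 239 deep cells of a cluster just under the limit for a tumour name. T-like and NK-like cells together were scarce, with 20 and 80 cells in the control libraries and 50 and 66 in the nanocapsule libraries.

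Each gene was located in the GRCm38 build with the GENCODE mouse release 21 annotation, where all 10 are protein-coding. Pdcd1 lies at chr1:94038305-94052553 on the minus strand and Ctla4 at chr1:60887000-60915832 on the plus strand. Lag3 lies at chr6:124904361-124911705 (minus), Havcr2 at chr11:46454935-46481255 (plus) and Tigit at chr16:43648867-43664146 (minus). The genes of the PD-1 ligands are neighbours on the plus strand, Cd274 at chr19:29367455-29388095 and Pdcd1lg2 at chr19:29410919-29471161, with 22823 bases between them. Cd80 (chr16:38455561-38496335, plus) and Cd86 (chr16:36603869-36666081, minus) also share a chromosome, and Lgals9 lies at chr11:78962974-78984946 (minus). AC119228.1 overlaps Cd274 and A930007I19Rik overlaps Pdcd1lg2 on the opposite strand, and whether the counting used strand is not given in the sources used here.

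Because Cd274 and Lgals9 are the ligands that the results below turn on, one with a difference between the groups and one without, the 250 bases before their RefSeq transcription starts (GRCm38.p6) are shown 5′ to 3′ on the gene's strand. Capitals mark a match to the core of the interferon-stimulated response element (GAAA, then 2 bases of any kind, then GAAA), searched on both strands.

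Cd274, chr19:29367188-29367437, plus strand: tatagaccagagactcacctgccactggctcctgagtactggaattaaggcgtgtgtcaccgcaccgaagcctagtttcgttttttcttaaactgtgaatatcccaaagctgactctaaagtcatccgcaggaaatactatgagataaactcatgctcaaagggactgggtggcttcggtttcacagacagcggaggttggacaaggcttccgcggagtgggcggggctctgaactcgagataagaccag

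Lgals9, chr11:78984925-78985174, minus strand: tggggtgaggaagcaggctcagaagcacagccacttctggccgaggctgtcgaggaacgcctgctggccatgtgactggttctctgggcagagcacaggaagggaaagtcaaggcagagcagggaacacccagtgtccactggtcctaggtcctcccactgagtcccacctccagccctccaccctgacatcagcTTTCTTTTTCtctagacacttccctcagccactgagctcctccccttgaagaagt

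The RefSeq table held such a stretch for 8 of the 10 genes. The core occurred in 3.0% of all 32851 promoters of the same length, and among the 8 it was found in Lgals9 alone, as TTTCTTTTTC on the strand shown. The gamma-activated site TTCNNNGAA, present in 7.0% of all promoters, matched none of the 8. The AP-1 site TGANTCA, present in 6.7% of all promoters, matched Havcr2 and Cd80, each as TGATTCA. These are matches of letters within a short window, and a missing match says only that the letters are not in it.

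Pooled over all libraries, most Pdcd1, Tigit and Ctla4 transcripts lay in T-like cells. Those of Lag3 and Havcr2 were spread over T-like, tumour-like and other immune cells. Of 309 Pdcd1 UMIs in all cells, 277 (89.64%) were in T-like cells, as were 66.58% of 371 Tigit UMIs, 58.63% of 776 Ctla4 UMIs and 40.53% of 565 Lag3 UMIs. Tumour-like cells, which held most of the RNA, carried 36.6% of the Ctla4, 39.65% of the Lag3 and 42.03% of the Havcr2 UMIs but at levels under 1 CPM in every library. By library, T-like cells held 14.81% and 33.93% of Tigit UMIs in the control and 73.13% and 79.19% in the nanocapsule libraries. For Ctla4 these shares were 14.29% and 45.19% against 59.32% and 77.56%. For Lag3 they were 4.44% and 11.93% against 28.57% and 67.64%, and for Havcr2 3.57% and 1.38% against 15.57% and 30.13%. Such shares also follow how many cells of each class a library held, such as 13 T-like and 3060 tumour-like cells in the first control library. In both control libraries tumour-like cells held more than T-like cells, at 62.96% and 39.29% of Tigit and 78.57% and 48.15% of Ctla4 UMIs. Near-empty droplets of 10 to 100 UMIs, which hold free RNA, gave at most 2.77 CPM for any of the 5 receptors, against 41.5 to 294 CPM for Lag3 in T-like cells. NK-like cells held Tigit at 126 and 116 CPM in the control and 195 and 149 CPM in the nanocapsule libraries. The same cells held no UMI of Pdcd1 or Havcr2 and 1 UMI of Lag3, which in the deepest NK-like sum (93721 UMIs) allows up to 32.0 CPM for each gene at 0. Plasmacytoid dendritic-like cells, only 4 to 16 per library, carried Lag3 at 348 and 261 CPM in the control and 482 and 199 CPM in the nanocapsule libraries, so the groups overlapped. That was above the Lag3 level of T-like cells in the control libraries (73.4 and 41.5 CPM) and the first nanocapsule library (92.3 CPM), and below it in the second (294 CPM). Havcr2 was shared with myeloid cells, where 33.56% of its 590 UMIs lay in macrophage-like cells and 16.27% in T-like cells. Its T-like level was below the macrophage-like level in the second control library (6.38 against 36.8 CPM) and above it in the other 3 libraries.

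In the summed T-like and NK-like cells, the nanocapsule libraries lay above the control libraries for all 5 receptors, without overlap, and none passed the test after adjustment over all genes. The same held for 18.4% of the 5577 genes tested in these cells. A further 17.6% lay below the controls in the same way, which no checkpoint gene did. In the first nanocapsule library the cell with the most UMIs held 14 of 38 for Pdcd1, 45 of 108 for Ctla4 and 14 of 27 for Lag3. For Tigit it was 17 of 60 and for Havcr2 5 of 19. In the second, these counts were 18 of 209, 45 of 274, 42 of 186, 37 of 189 and 13 of 72. The part of single cells in the separation was not tested. Normalised levels here are CPM after TMM scaling, and fold changes with their standard errors (SE) and adjusted p-values come from edgeR's quasi-likelihood test with Benjamini-Hochberg adjustment, with 2 libraries per group. No gene of 5577 (0%) reached an adjusted p of 0.05, while 426 (7.64%; 3.89% of all genes upward) had an unadjusted p under 0.05, the 5 receptors among them, and DESeq2 called 3 genes, none of them a checkpoint gene.

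Pdcd1, the receptor of PD-L1, stood at 85.0 and 62.7 CPM in the control libraries and at 124 and 305 CPM in the nanocapsule libraries. The groups did not overlap, and the second nanocapsule library was far above the first. The fitted log2 fold was 1.69 ± 0.48 (SE), with an adjusted p of 0.458 from edgeR. Ctla4 stood at 219 and 169 CPM in the control and 353 and 400.0 CPM in the nanocapsule libraries, and here the nanocapsule libraries lay close together. Its log2 fold was 1.02 ± 0.28 (SE), the smallest of the 5, with an adjusted p of 0.456 from edgeR. Tigit gave 97.2 and 76.3 CPM in the control against 196 and 276 CPM in the nanocapsule libraries, a log2 fold of 1.54 ± 0.34 (SE) with an adjusted p of 0.312 from edgeR. As with Ctla4, the lower nanocapsule library was well above the higher control library.

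Lag3 and Havcr2, which mark late stages of CD8 T cell dysfunction, had the largest fitted differences and the fewest control UMIs. Lag3 stood at 48.6 and 35.4 CPM in the control and at 88.1 and 272 CPM in the nanocapsule libraries. Its log2 fold was 2.29 ± 0.59 (SE), with an adjusted p of 0.416 from edgeR. The second nanocapsule library again stood well above the first. Havcr2 stood at 36.4 and 5.45 CPM in the control, from 3 and 2 UMIs, and at 62.03 and 105 CPM in the nanocapsule libraries. Its log2 fold was 2.88 ± 0.68 (SE), with an adjusted p of 0.341 from edgeR. The control libraries differed from each other by a larger ratio than the nanocapsule libraries did. The second control library lay under the limit of the filter on low counts. Havcr2 passed that filter only with the help of the nanocapsule libraries, so the direction of its difference was partly fixed by the filter.

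**Figure D1:**
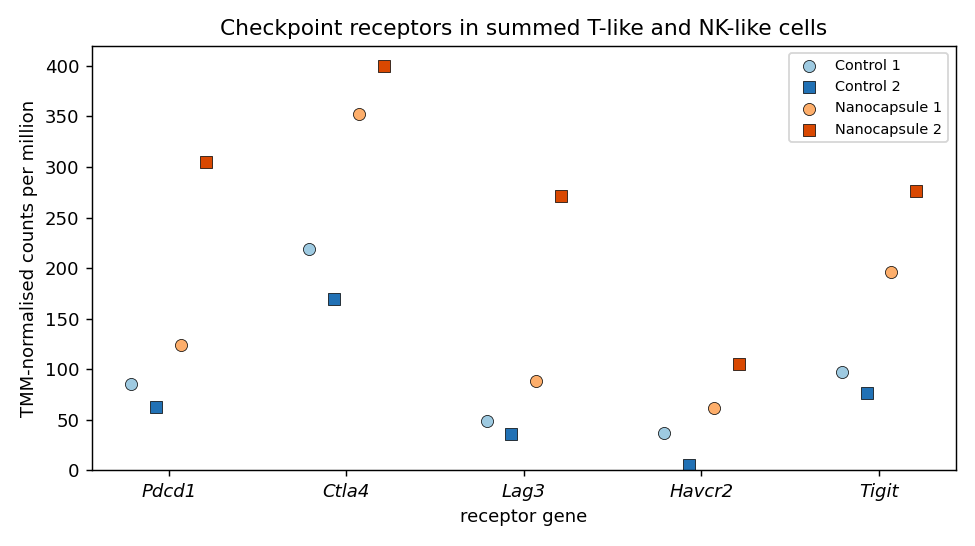
TMM-normalised CPM (vertical axis) of the 5 receptor genes (horizontal axis) in summed T-like and NK-like cells, 1 point per library, blue for control and orange for nanocapsule. For every receptor both nanocapsule points lie above both control points, and for Pdcd1 and Lag3 the second nanocapsule library (305 and 272) stands far above the first (124 and 88.1).

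The size of these differences rested in part on single libraries. Without the second nanocapsule library the log2 folds were 0.83 for Pdcd1, 1.17 for Lag3, 2.26 for Havcr2, 1.23 for Tigit and 0.90 for Ctla4, still positive, and without the second control library that of Havcr2 was 1.29. Without the first nanocapsule library the log2 folds were 2.14 for Pdcd1, 2.81 for Lag3 and 3.11 for Havcr2. That of Havcr2 was 3.95 without the first control library. Whether these genes passed edgeR's test depended on the library left out, and no receptor passed without the second control or the second nanocapsule library. In each such fit a lone library is assumed to vary like the others, so the spread within its group is not measured. In T-like cells alone the log2 folds were 1.48 ± 0.49 for Pdcd1, 0.88 ± 0.32 for Ctla4, 2.07 ± 0.60 for Lag3, 2.68 ± 0.72 for Havcr2 and 1.87 ± 0.40 for Tigit (SE), none past the test. The summed macrophage markers in the T-like and NK-like cells were 23.2 and 10.2 CPM in the control and 97.6 and 15.2 CPM in the nanocapsule libraries, with 7 of 10 detected and Mrc1, Adgre1 and Ms4a7 at 0. The summed melanocyte markers, all 9 detected, were 372 and 271 CPM in the control and 79.9 and 67.5 CPM in the nanocapsule libraries. Their part in the receptor differences was not tested.

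The share of T-like cells in which a receptor was seen was highest in the second nanocapsule library for each of the 5, and such shares also depend on depth. The median T-like cell held 3122 and 4295 UMIs in the control libraries and 5061 and 7341 in the nanocapsule libraries. Pdcd1 was detected in 3 of 13 and 11 of 63 control cells and in 9 of 37 and 29 of 49 nanocapsule cells, shares of 23.1%, 17.5%, 24.3% and 59.2%. When every cell was thinned to 1500 UMIs, the shares became 9.15%, 8.51%, 7.30% and 29.93%, so at equal depth the first nanocapsule library was not above the control libraries and the second was. For Lag3 the thinned shares were 3.66% and 5.33% in the control and 5.41% and 20.78% in the nanocapsule libraries, so the first nanocapsule library was level with the second control. For Havcr2 the thinned shares were 3.56% and 0.21% against 4.71% and 9.69%, and for Tigit 10.41% and 8.02% against 11.99% and 25.45%, with both nanocapsule libraries above both controls. Ctla4 overlapped, at 28.19% and 14.63% against 19.69% and 30.75%. In tumour-like cells, which served as the background, the thinned share was at most 0.133% for any receptor, from cells of 38204.5 to 88255 median UMIs.

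Receptors were often found in the same T-like cell. All 24 T-like cells with a Havcr2 UMI also held Ctla4, 23 of them held Pdcd1 and 22 held Lag3, and 35 of the 40 cells with Lag3 held Pdcd1. Of all 162 T-like cells, 68 held Ctla4, 52 held Pdcd1 and 40 held Lag3. The cells with Havcr2 numbered 2 and 1 in the control and 6 and 15 in the nanocapsule libraries. These pair counts are at full depth and were not thinned, so deeper cells enter them more easily. At full depth, 2 or more of the 5 receptors were seen in 23.1% (95% Clopper-Pearson interval 5.0% to 53.8%) and 22.2% (12.7% to 34.5%) of control T-like cells. The shares in the nanocapsule libraries were 29.7% (15.9% to 47.0%) and 63.3% (48.3% to 76.6%). After thinning to 1500 UMIs they were 7.7% (0.2% to 36%) and 11.1% (4.6% to 21.6%) in the control libraries. In the nanocapsule libraries they were 16.2% (6.2% to 32.0%) and 36.7% (23.4% to 51.7%). These intervals cover counting error only. The interval of the second nanocapsule library lay above that of the second control library at both depths but overlapped that of the first control library at both, while the interval of the first nanocapsule library overlapped those of both control libraries. All 5 receptors were seen together in 1 and 0 control cells and in 2 and 14 nanocapsule cells at full depth. After thinning, these counts were 0 and 0 in the control and 0 and 1 in the nanocapsule libraries.

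**Figure D2:**
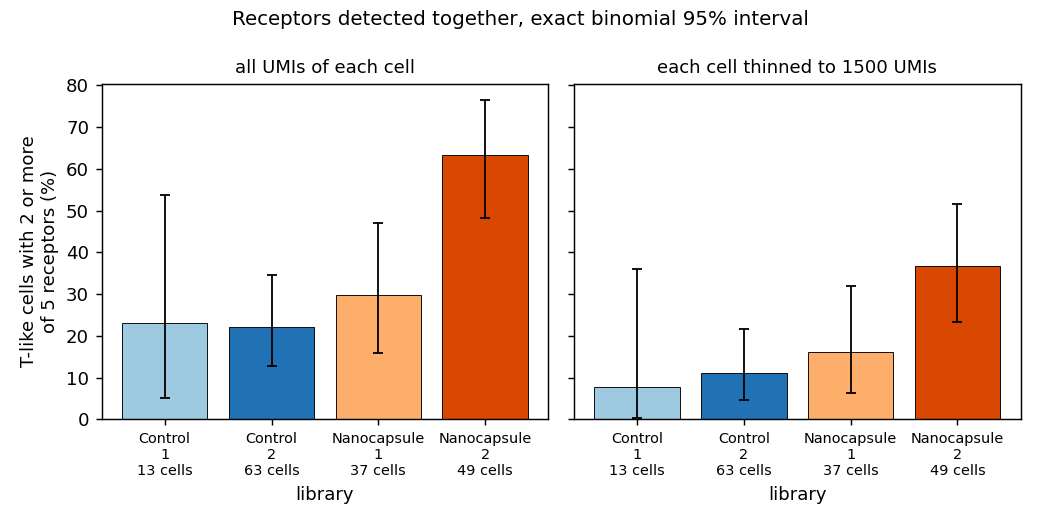
Share of T-like cells (percent, vertical axis) with UMIs of 2 or more of the 5 receptors in each library (horizontal axis), from all UMIs (left) and after thinning each cell to 1500 UMIs (right), with exact 95% binomial intervals. The second nanocapsule library reached 63.3% and 36.7%, and the first nanocapsule library (29.7% and 16.2%) lay within the intervals of the first control library.

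Within the T-like cells, most Pdcd1, Lag3 and Havcr2 came from cells with a Cd8a or Cd8b1 UMI and without a Foxp3 UMI. Cd8a and Cd8b1 encode the CD8 co-receptor chains, and Foxp3 the regulatory T cell factor. T-like cells with a CD8 and no Foxp3 UMI numbered 5 and 30 in the control and 20 and 33 in the nanocapsule libraries. Pdcd1 was seen in 3 and 6 of them in the control and in 5 and 25 in the nanocapsule libraries, at 204 and 109.7 CPM against 186 and 417 CPM, so the groups overlapped within CD8 cells. Lag3 in the same cells stood at 116 and 71.0 CPM in the control and 154 and 382 CPM in the nanocapsule libraries, without overlap. Cells with Foxp3 and no CD8 UMI were few, 3 in the control and 8 in the nanocapsule libraries, and every one held Ctla4. Tigit was seen in 1 of those 3 and 6 of those 8 cells. Since a subset here is set by detected UMIs, deeper cells enter it more easily.

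Among the 6 immune classes and the tumour-like cells described here, PD-L1 had its highest level in conventional dendritic-like cells in every library. In CPM without TMM scaling, Cd274 stood there at 167 and 185 in the control and 581 and 369 in the nanocapsule libraries. Macrophage-like cells followed in the nanocapsule libraries, with 92.6 and 92.1 in the control and 250.5 and 208 in the nanocapsule libraries. NK-like cells (77.5 to 126), B-like cells (28.6 to 106) and T-like cells (18.4 to 86.1) followed. Neighbours in that order overlapped over the 4 libraries, and the NK-like and B-like ranges also held the control macrophage-like values. Plasmacytoid dendritic-like cells held at most 1 Cd274 UMI per library. Tumour-like cells lay below the other 5 immune classes, at 2.64 and 2.65 in the control and 5.14 and 9.59 in the nanocapsule libraries. They were so many that they still held 1783 (55.0%) of all 3242 Cd274 UMIs, against 893 (27.54%) in macrophage-like and 294 (9.07%) in conventional dendritic-like cells.

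**Figure D3:**
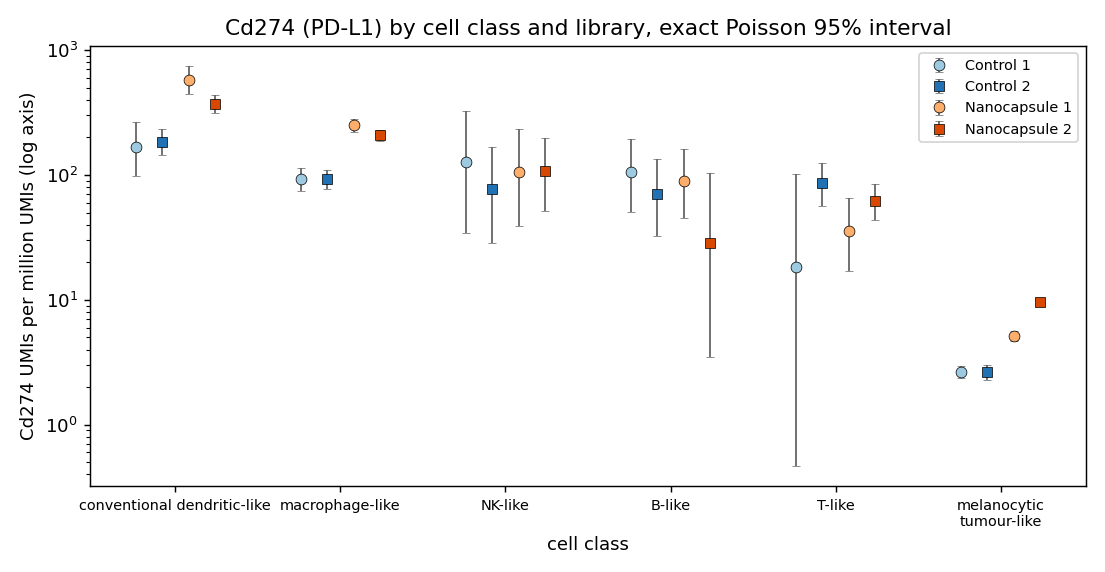
Cd274 CPM without TMM scaling (vertical log axis) in 6 cell classes (horizontal axis), 1 point per library with its exact Poisson 95% interval, blue for control and orange for nanocapsule. In conventional dendritic-like, macrophage-like and tumour-like cells both nanocapsule points lie above both control points, and in NK-like, B-like and T-like cells they overlap.

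The other ligands were split between lineages. Cd86 was a myeloid transcript, with 69.66% of its 1879 UMIs in macrophage-like and 19.32% in conventional dendritic-like cells. In T-like cells it gave 0 and 29 UMIs in the control and 5 and 16 UMIs in the nanocapsule libraries. Pdcd1lg2 was rare throughout, with 270 UMIs in all cells, of which 26.67% were in conventional dendritic-like, 25.93% in macrophage-like and 17.78% in T-like cells. Cd80 was spread over tumour-like (39.31% of 697 UMIs), macrophage-like (31.56%) and conventional dendritic-like cells (17.5%), at 64.9 to 142 CPM in the last and under 1 CPM in tumour-like cells. Lgals9 was detected in every class and library, and 84.89% of its 18295 UMIs were in tumour-like cells. Near-empty droplets held Lgals9 at 29.2 to 47.3 CPM, a range that overlapped that of tumour-like cells (35.8 to 50.4 CPM).

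In macrophage-like cells, the nanocapsule libraries lay above the controls for Cd274, and Cd80, Cd86 and Lgals9 were not separated by treatment. TMM-normalised Cd274 stood at 94.0 and 87.4 CPM in the control and 274 and 208 CPM in the nanocapsule libraries. The libraries of each group lay close together and far from the other group. The log2 fold was 1.41 ± 0.23 (SE), with an unadjusted p of 0.000237 and an adjusted p of 0.56 from edgeR, as no gene of 8515 (0%) passed. Of these genes, 292 (3.43%; 1.59% of all genes upward) had an unadjusted p under 0.05, Cd274 alone among the 5 checkpoint genes tested, and DESeq2 called 3 genes. Havcr2 also lay above the controls, by little, at 30.6 and 35.0 CPM against 40.2 and 39.4 CPM, a log2 fold of 0.27 ± 0.26 (SE). That made 2 of the 5 without overlap, while 15.5% of all genes tested lay above the controls.

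Cd86 in macrophage-like cells overlapped between the groups, at 131 and 245 CPM in the control and 145 and 342 CPM in the nanocapsule libraries. The second library of each group was the higher. Cd80 gave a log2 fold of -0.14 ± 0.26 and Lgals9 one of -0.03 ± 0.22 (SE), and the groups overlapped for both. The Cd274 result passed edgeR's test without the first (1.20, adjusted p 0.00334) or the second nanocapsule library (1.58, adjusted p 6.58e-07) but not without the first (1.46, adjusted p 0.275) or the second control library (1.34, adjusted p 0.641), and in each of these fits a lone library is assumed to vary like the others. The summed melanocyte markers in macrophage-like cells were 334, 319, 849.5 and 253 CPM in the order control 1, control 2, nanocapsule 1 and nanocapsule 2, and T cell markers were at most 13.6 CPM. The part of such RNA from other cells was not tested, and tumour-like cells held Cd274 at 2.64 to 9.59 CPM.

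Conventional dendritic-like cells, the class with the highest Cd274, had both PD-1 ligands and both CD28 ligands above the controls in the nanocapsule libraries, none past the test. Cd274 stood at 183 and 198 CPM in the control and 657 and 421 CPM in the nanocapsule libraries. The control libraries lay close together and both nanocapsule libraries exceeded them, with a log2 fold of 1.44 ± 0.32 (SE) and an adjusted p of 0.104 from edgeR. Cd86 stood at 224 and 308 CPM against 549 and 524 CPM, a log2 fold of 0.96 ± 0.29 (SE) with an adjusted p of 0.349 from edgeR. Here too the nanocapsule libraries were close to each other and clear of the controls.

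Pdcd1lg2 in the same cells gave 71.3 and 49.5 CPM against 172 and 91.2 CPM, with a log2 fold of 1.08 ± 0.46 (SE) and an adjusted p of 0.716 from edgeR. Cd80 gave 71.3 and 126 CPM against 151 and 162 CPM, with a log2 fold of 0.55 ± 0.40 (SE). Lgals9 overlapped between the groups, at 50.9 and 90.7 CPM against 108 and 35.3 CPM. Thus 4 of the 5 genes tested lay above the controls in the nanocapsule libraries, against 17.1% of the 3958 genes tested. None of the 5 passed the test, which 6 genes (0.152%) did, and 3 of the 5 (Cd274, Cd86 and Pdcd1lg2) had an unadjusted p under 0.05, against 6.44% of all genes, 3.66% upward. DESeq2 called 3 genes. The class held only 14 and 36 control and 11 and 23 nanocapsule cells, and the cell with the most Cd274 held 7 of 18 and 17 of 72 UMIs in the control and 22 of 61 and 38 of 143 UMIs in the nanocapsule libraries. Summed markers of mature dendritic cells were 1965 and 3658 CPM in the control and 4267 and 2934 CPM in the nanocapsule libraries, with all 8 detected and the groups overlapping. The conventional dendritic markers themselves summed to 2289 and 2369 CPM in the control and 1533 and 2133 CPM in the nanocapsule libraries. Of these 10 markers, 4 lay below the controls in both nanocapsule libraries and 0 above. The part of either marker list in the result was not tested. Without the second nanocapsule library the log2 fold of Cd274 was 1.73, and whether it passed the test depended on the library left out. In such a fit a lone library is assumed to vary like the others.

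In tumour-like cells Cd274 was low and again lay above the controls in the nanocapsule libraries. Normalised levels were 2.74 and 2.54 CPM in the control and 5.23 and 9.46 CPM in the nanocapsule libraries. The second nanocapsule library was the highest, and the control libraries were nearly equal. The log2 fold was 1.47 ± 0.28 (SE), with an adjusted p of 0.699 from edgeR, by which no gene of 16127 (0%) passed and 1137 (7.05%; 3.87% of all genes upward) had an unadjusted p under 0.05, Cd274 alone among the 7 checkpoint genes tested. DESeq2 called 77 genes, Cd274 among them (adjusted p 0.000138). The log2 fold of Cd274 was 1.83 without the first and 0.98 without the second nanocapsule library. Among the left-out libraries, edgeR called it only without the first nanocapsule library. In such a fit a lone library is assumed to vary like the others. Cd80 was the other of the 7 that did not overlap, barely, at 0.60 and 0.72 CPM against 0.73 and 0.96 CPM, while 19.4% of all genes tested lay above the controls. Near-empty droplets held Cd80 at like levels, 0.352 and 0.962 CPM in the control and 0.396 and 0.802 CPM in the nanocapsule libraries. Lgals9 stood at 37.2 and 44.9 CPM against 37.7 and 49.7 CPM, a log2 fold of 0.09 ± 0.15 (SE) with overlapping groups.

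Much of the tumour Cd274 lay in 1 cluster led by the interferon-induced genes Apol9a, Tgtp2, Gbp6, Igtp and Irgm1 together with Prph. It held 0.82% and 1.55% of tumour-like cells in the control libraries and 4.49% and 17.81% in the nanocapsule libraries. The share of tumour Cd274 UMIs found in this cluster was 3.4% and 10.9% in the control and 27.5% and 73.6% in the nanocapsule libraries. Within the cluster Cd274 stood at 11.8 and 19.4 CPM in the control and at 35.4 and 44.2 CPM in the nanocapsule libraries, a difference within the cluster that was not tested. Cells were placed in the cluster by genes other than Cd274, but those genes include targets of the same cytokines, and the control values rest on 11 and 23 UMIs. Without the cluster, a comparison chosen after its composition was seen, the tumour log2 fold of Cd274 was 0.48 ± 0.19 (SE; adjusted p 0.724 from edgeR), from 2.67 and 2.30 CPM against 3.95 and 2.98 CPM. Near-empty droplets held Cd274 at 3.52 and 5.13 CPM in the control and 3.96 and 7.22 CPM in the nanocapsule libraries, from only 10, 16, 10 and 18 UMIs. The level outside the cluster was no higher than these values, and in the first nanocapsule library it was nearly equal. The part of free RNA in it was not tested. In tumour-like cells without any UMI of an immune marker the log2 fold was 1.00 ± 0.18 (SE; adjusted p 0.341 from edgeR), from 2.67 and 2.76 CPM against 4.79 and 6.07 CPM. Summed over all tumour-like cells, these markers were at 10.7 and 10.7 CPM in the control and 16.9 and 37.1 CPM in the nanocapsule libraries. Whether this RNA came from immune cells or from the tumour-like cells was not tested, nor was its part in the Cd274 difference.

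**Figure D4:**
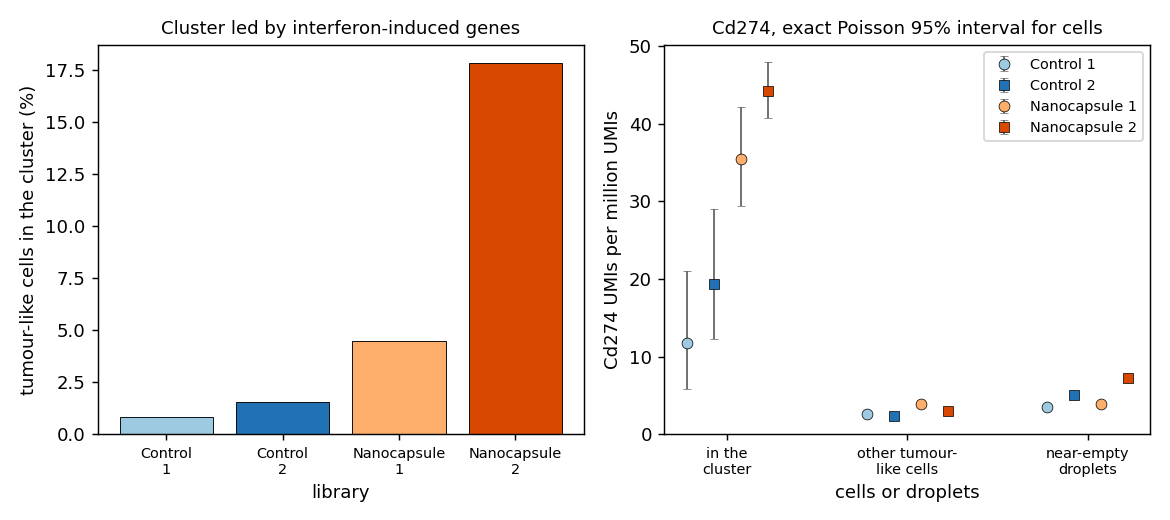
Left, percent of tumour-like cells in the cluster led by interferon-induced genes, by library. Right, Cd274 CPM without TMM scaling in that cluster, in the other tumour-like cells and in near-empty droplets (exact Poisson 95% intervals for cells), with 11.8 to 44.2 in the cluster and 2.39 to 3.88 outside it.

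The treatment difference of Cd274 was of like size in the other 3 classes tested, with log2 folds of 1.41 in macrophage-like, 1.44 in conventional dendritic-like and 1.47 in tumour-like cells. A model of macrophage-like and tumour-like cells with each library as a block gave a difference between their Cd274 folds of -0.03 ± 0.26 (SE, log2; adjusted p 1 from edgeR). The same difference was -0.05 ± 0.57 for Havcr2, -0.11 ± 0.25 for Lgals9 and -0.50 ± 0.54 for Cd80. None of these 4 passed, while 112 of the 15989 genes tested (0.7%) did. The Cd274 difference was -0.61 ± 0.28 (SE) without the first and 0.58 ± 0.30 (SE) without the second nanocapsule library, neither past the test, so its sign turned with the library left out.

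Set side by side by receptor and ligand, the pairs differed in pattern. For the PD-1 axis, the receptor had a log2 fold of 1.69 in T-like and NK-like cells, and PD-L1 had 1.41 to 1.47 in macrophage-like, conventional dendritic-like and tumour-like cells. For CTLA-4, the receptor had 1.02, while Cd86 had 0.96 and Cd80 0.55 in conventional dendritic-like cells and 0.37 and -0.14 in macrophage-like cells. For TIGIT, the receptor had 1.54, and its ligands Pvr and Nectin2 had 0.34 and 0.27 in tumour-like cells, while Pvr had -0.04 in macrophage-like cells with overlapping groups. For TIM-3, the receptor had 2.88 while Lgals9 had values from -0.49 to 0.09 in macrophage-like, conventional dendritic-like and tumour-like cells, with overlapping groups in each. The same 4 libraries give every one of these values. T-like and NK-like cells also carried ligands, and there Cd274 (-0.36 ± 0.36), Pdcd1lg2 (0.02 ± 0.49) and Lgals9 (-0.44 ± 0.30) overlapped between the groups (log2 fold, SE). Cd80 and Cd86 were too few in these cells to be tested. Without TMM scaling, Cd80 stood at 11.6 and 2.56 CPM in the control and 26.6 and 28.9 CPM in the nanocapsule libraries, without overlap. These values rest on 1 and 1 control and 9 and 21 nanocapsule UMIs. Cd86 overlapped, at 0 and 74.2 CPM against 14.8 and 23.4 CPM.

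**Figure D5:**
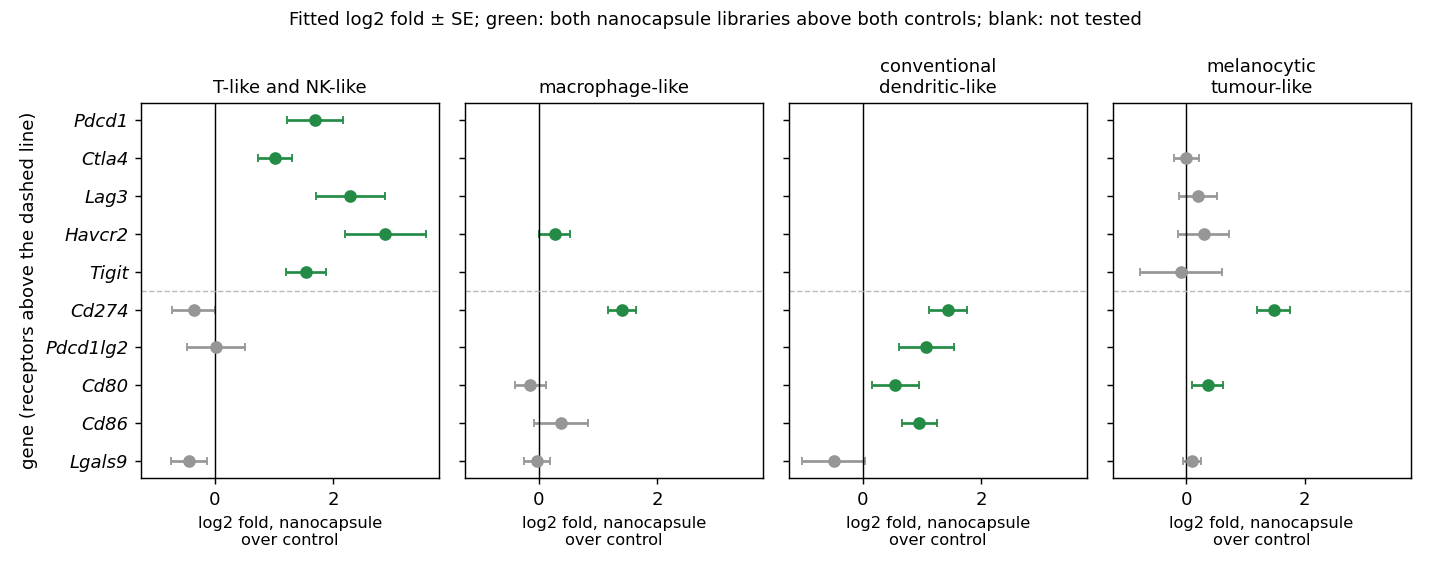
Fitted log2 fold of nanocapsule over control libraries (horizontal axis, point ± SE) for the 10 genes (vertical axis, receptors on top) in 4 cell classes, with green where both nanocapsule libraries lie above both controls and blanks where a gene was too low to test. Green points include the 5 receptors in T-like and NK-like cells and Cd274 in the other 3 classes, and Lgals9 is grey throughout.

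Related genes from lists set beside the 10 were read in the same fits. In T-like and NK-like cells none of the tested genes of these lists passed. Of the 10 other members of the PD-1 and CTLA-4 family list, 4 were tested, with a median log2 fold of -0.17 against 0 over all genes tested. Icos and Cd28, costimulators of the family, gave -0.85 ± 0.37 and -0.57 ± 0.31 (log2 fold, SE) with overlapping groups. Cd226, the activating competitor of TIGIT, stood at 170 and 128 CPM in the control and 108 and 159 CPM in the nanocapsule libraries, and Cd96 overlapped likewise. Of 12 other inhibitory receptors and ligands, 8 were tested, of which 1 lay above and 4 lay below the controls without overlap, as did 18.4% and 17.6% of all genes. Klrg1 gave 134 and 123 CPM against 88.1 and 55.5 CPM, and Lilrb4a gave 48.6 and 32.7 CPM against 104 and 58.4 CPM. Of 10 TNF family costimulators, 5 were tested, of which 3 lay above and 1 lay below the controls. Cd40lg, the helper ligand, gave 36.4 and 81.8 CPM in the control and 6.53 and 0 CPM in the nanocapsule libraries. It passed the filter on low counts only through the control libraries, so the direction of its difference was partly fixed by that filter. Tnfrsf4 (OX40) gave 121 and 123 CPM against 424 and 272 CPM.

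Among 12 genes of PD-L1 induction and stability, Irf1 rose in conventional dendritic-like cells by edgeR's test, a call that 6 of 10 alternatives kept. Irf1, an interferon-induced factor known to drive Cd274, stood there at 71.3 and 113 CPM in the control and 355 and 362 CPM in the nanocapsule libraries, a log2 fold of 1.85 ± 0.35 (SE) with an adjusted p of 0.0399 from edgeR. The call did not hold without the first (adjusted p 0.0754) or the second control library (0.0573), with library totals only (0.0829) or with DESeq2 (0.826), although the fold stayed between 1.67 and 2.29. It was the only one of the 11 tested to pass, against 0.152% of all genes. Of the 11, 6 lay above and 2 below the controls (17.1% and 17.4% of all genes), 5 had an unadjusted p under 0.05 (6.44% of all genes), and the median log2 fold was 0.47 against -0.003. In tumour-like cells none of the 12 passed, with Irf1 at 2.96 and 3.99 CPM against 6.77 and 24.6 CPM. Among the left-out libraries, Irf1 passed there only without the first nanocapsule library, a fit in which a lone nanocapsule library is assumed to vary like the others. In T-like and NK-like cells Irf1 stood at 97.2 and 161 CPM against 291 and 292 CPM, with an adjusted p of 0.477 from edgeR. In macrophage-like cells none passed, and Stat3 and Jak2 had the smallest unadjusted p, at log2 folds of 0.42 ± 0.21 and 0.48 ± 0.25 (SE). Tnfrsf9 (4-1BB) and Cd276 (B7-H3) lay below the controls there. Tnfrsf9 stood at 21.8 and 33.7 CPM against 6.18 and 7.16 CPM, and Cd276 at 9.83 and 10.4 CPM against 2.06 and 2.04 CPM. Both passed the filter on low counts only through the control libraries, so the direction of their differences was partly fixed by that filter. At the coarser clustering resolution of 1.0 the log2 fold of Tnfrsf9 was -1.27, against -2.05 here. In conventional dendritic-like cells Tnfrsf9 gave 40.7 and 57.7 CPM against 96.9 and 97.1 CPM. There its first control library was under the limit of the filter, which it passed only with the help of the nanocapsule libraries. The ligands of TIGIT were tested mainly in tumour-like cells, where Pvr gave 14.9 and 13.04 CPM against 17.9 and 17.4 CPM and Nectin2 gave 16.5 and 14.03 CPM against 18.1 and 18.8 CPM, neither past the test.

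Across 28 class-by-library sums of 7 classes, the genes whose log2(CPM + 1) levels were most like Pdcd1 were Cd226 (Pearson r = 0.977), Cd5 (0.954), Sla2 (0.95), Cd8a (0.949) and Klrc2 (0.935). Those most like Cd274 were Cyba (0.934), Slamf7 (0.931), Nckap1l (0.926), H2-DMa (0.923) and Il4ra (0.922), out of 11131 genes with at least 20 CPM in a sum. One of the 7 classes, the neutrophil-like cluster led by S100a8 and S100a9, also held melanocyte markers at 5413 to 9936 CPM. The sums share libraries and cell classes, so these values describe where the genes were found and carry no test.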

How the data were processed

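Counts are the UMI counts per gene and barcode that the authors deposited, unfiltered and per library. Cell Ranger 2.1.1 is named per the submitters' processing notes, while the file headers name Cell Ranger 4. Cells were clustered with scanpy 1.11.5 (2000 variable genes, 30 components, 15 neighbours, Leiden resolution 2.0) without the 76 checkpoint and list genes, and clusters were named from 17 marker sets. No doublet caller was run. Raw counts were summed per library and class and tested with edgeR 4.0.16 (TMM, filterByExpr, quasi-likelihood, Benjamini-Hochberg at 0.05, 2 residual degrees of freedom), after checks on simulated data. Each SE was taken as the fitted log2 fold over the root of its F statistic. DESeq2 1.42.0, other scalings, no filter, other cell sets and left-out libraries were alternatives. Intervals are exact at 95%, cover counting error only, and 3 counts set the limit at 0. Members and lists were chosen with earlier results of these data known. Named were all 10 genes and, from the other lists, some of those that passed or had the 2 smallest p in a class, with Pearson correlation ranking the like genes.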

Additional observations from a re-analysis of the deposited data

How the results depend on the processing

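Over 29 tested combinations of checkpoint gene and class and 339 alternative values, 293 kept direction and side of the threshold, 16 newly passed and 30 turned sign, with no call to lose. For 18 other named genes by class, 200 of 222 values did so, 10 newly passed, 4 lost a call and 8 turned. The cause of these changes was not tested. A fit that leaves out a library keeps a lone library in a group, which is assumed to vary like the others. With too few cells in some libraries, the order-of-magnitude UMI minimum gave no fit for T-like and NK-like or conventional dendritic-like cells, and resolution 1.0 gave no dendritic class.

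Genes passing in T-like and NK-like cells (0) became 3 with DESeq2, 58 without the filter on low counts, and 3 to 52 leaving out a library. In macrophage-like cells (0) they became 3, 67 and 4 to 239, and 1 with the order-of-magnitude minimum. In conventional dendritic-like cells (6) they became 3, 41 and 8 to 94. In tumour-like cells (0) they became 77, 9 and 26 to 124, and 5 without the cluster led by interferon-induced genes, an alternative chosen after seeing the data. The difference between macrophage-like and tumour-like cells (112) became 74 without the filter, 0 without the library block and 44 to 216 leaving out a library.

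The replicate numbers are shared by the groups but not said to pair libraries, and same-numbered deviations correlated at -0.1001 (T-like and NK-like), 0.2093 (macrophage-like), 0.035 (dendritic-like) and 0.3753 (tumour-like). With the replicate block 3, 24, 11 and 657 genes passed, Cd274 (1.39, adjusted p 0.0032) and Tnfrsf9 (adjusted p 0.0249) in macrophage-like cells among them, and Pdcd1lg2 in T-like and NK-like cells was -0.10. Under the crossed pairing of T-like and NK-like libraries 0 genes passed and Pdcd1lg2 was -0.16.

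Leaving out a library turned the log2 fold in T-like and NK-like cells of Cd274 (-0.64 to 0.10), Pdcd1lg2 (-1.05 to 0.62), Icos (-1.16 to 0.16), Cd96 (-0.57 to 0.21) and Cd226 (-0.42 to 0.17). It did so for Lgals9 (-0.14 to 0.10) and Cd86 (-0.41 to 0.90) in macrophage-like cells and Lgals9 (-1.14 to 0.44) in dendritic-like cells. In tumour-like cells it did so for Ctla4 (-0.0311 to 0.0268), Lag3 (-0.23 to 0.52), Havcr2 (-0.21 to 0.98), Lgals9 (-0.13 to 0.27) and Tigit (-1.52 to 0.61). The difference between classes turned for Havcr2 (-0.60 to 0.39), Lgals9 (-0.37 to 0.16) and Cd274 (-0.61 to 0.58). In T-like and NK-like cells Pdcd1lg2 was -0.25 with DESeq2, -0.0068 with library totals only and -0.0223 in T-like cells alone. Without the filter Pdcd1 (adjusted p 0.00244), Lag3 (3.62e-05), Havcr2 (0.000649) and Tigit (0.00701) passed there, as did Cd274 in macrophage-like (0.00013) and dendritic-like cells (0.0228). Without it Cd96 was 0.0125 and Cd226 0.0275, and in T-like cells alone Cd96 was 0.38. Cd80 in macrophage-like cells was 0.44 with the order-of-magnitude minimum. In tumour-like cells without an immune marker UMI, Ctla4 was 0.0305, Lag3 -0.0563 and Lgals9 -0.021, and without the interferon-induced cluster Ctla4 was 0.0718 and Lgals9 -0.0041. Depth limits what the small classes can show, with 11 to 36 dendritic-like cells per library.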
